A study of Mus musculus with 22 samples.

Results

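Perforin and 9 granzymes make up the cytotoxic granule genes described here: Prf1, Gzma, Gzmb, Gzmc, Gzmd, Gzme, Gzmf, Gzmg, Gzmk and Gzmm. They were chosen by name, and all 10 were found among the 46297 gene rows of the table. RNA sequencing had been run on 22 libraries of sorted mouse CD8+ T cells, and every member had reads in some of them.

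Cytotoxic T cells kill by releasing granules toward a bound target cell. Perforin forms pores in the membrane, and granzymes, which are serine proteases, enter through them and cut proteins inside the target. Granzyme B cuts after aspartate and activates caspases, while granzyme A has a trypsin-like specificity and kills by a route that does not need caspases. The mouse carries a group of granzyme B-related genes on chromosome 14 that has no full counterpart in human.

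The cells were P14 CD8+ T cells, which carry a transgenic receptor for a peptide of a mouse virus (LCMV), from C57BL/6 mice aged 6 to 12 weeks. The groups were VHL-deficient and wild-type (WT) cells from day 11 tumor (3 libraries each), and from day 7 tumor left unsplit, day 7 tumor sorted as Trm, day 7 tumor sorted as nonTrm, and day 7 spleen (2 libraries each). VHL is the substrate-binding part of the ubiquitin ligase that marks hypoxia-inducible factor (HIF) alpha subunits for degradation. Trm is the usual short form of tissue-resident memory T cell. "V" in the names of the VHL-deficient Trm and nonTrm libraries was read as VHL-deficient. The series text gives 5 mice for each biological replicate. The means of VHL removal, the kind of tumor, the start of the day count and the gates of the sort are not stated in the labels. Vhl itself had 0 to 32 reads in the 11 VHL-deficient libraries and 60 to 280 reads in the 11 WT libraries.

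The libraries held 3375558 to 10211060 reads assigned to genes, of which the ribosomal gene CT010467.1 took 26.91% to 45.66% and the mitochondrial genome 2.89% to 12.15%. Levels below are scaled counts, that is, reads divided by the size factor of their library, and 1 read was worth 0.684 to 2.728 scaled counts. The T cell genes Cd3d, Cd3e, Cd3g, Cd8a, Cd8b1 and Trac were at 1182 scaled counts or more in every library. Among the VHL-deficient nonTrm libraries, replicate 2 was unusual: it had the highest ribosomal share, and Malat1, a nuclear RNA, stood there at 34358 scaled counts. Replicate 2 of the day 11 WT tumor cells had transcripts of other leukocytes, including 277 scaled counts of the neutrophil protease gene Elane, 198 of Mpo and 30.9 of the NK cell receptor gene Ncr1. Calls of members that change without either library are given both ways.

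The mitochondrial share was lower in every VHL-deficient library than in the WT libraries of the same setting. It was 2.89% to 3.32% in VHL-deficient and 8.13% to 10.01% in WT cells of day 11 tumor, and 3.93% to 4.14% and 7.56% to 9.46% in unsplit day 7 tumor. In VHL-deficient and WT cells it was 4.23% to 5.57% and 11.61% to 12.15% in Trm, 3.45% to 4.08% and 11.35% to 11.54% in nonTrm, and 4.0% to 5.0% and 6.07% to 6.68% in spleen. A B cell list of 5 genes moved with genotype as well, summing to 76.1 to 135 scaled counts in VHL-deficient and 311 to 592 in WT cells of day 11 tumor and to 195 to 197 and 532 to 1018 in unsplit day 7 tumor. Its sum was 193 to 196 and 397 to 497 in Trm and 127 to 297 and 469 to 881 in nonTrm cells, with Ms4a1 at 0 in 15 of the 22 libraries, while Ighm ran from 38.4 to 1069.7. The part of either difference in the genotype results below was not tested.

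Of the members, 6 lie in 1 run on the minus strand of chromosome 14 (mm10, GENCODE M21), in the order Gzmb (56258838 to 56262260), Gzmc (56231441 to 56234656), Gzmf (56205263 to 56211417), Gzmg (56156582 to 56159579), Gzmd (56129556 to 56132608) and Gzme (56117626 to 56120625), each with 5 exons. Gzma (113093825 to 113100981) and Gzmk (113171608 to 113225908) neighbour each other on the minus strand of chromosome 13, each with 6 exons. Gzmm (79689020 to 79695261, 5 exons) and Prf1 (61297833 to 61304680, 3 exons) lie on the plus strand of chromosome 10. The span of Gzmf overlaps that of the antisense gene Gm4022, and whether the counting used strand is not known here.

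The genes Gzmc to Gzmg are close copies of each other. Of all stretches of 50 bases in its longest transcript, Gzmd shared 21.9% with another gene, Gzme 20.6%, Gzmg 19.8%, Gzmf 7.36% and Gzmc 4.14%. The closest pair was Gzmd and Gzme, which shared 12.0% of the stretches of Gzmd. The other 5 members shared none. The authors' handling of reads that match several genes is not known here, so the split of reads among Gzmd, Gzme and Gzmg is uncertain.

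The likeness of the copies extends upstream of the genes. All 10 members matched the RefSeq promoter table (GRCm38.p6, 250 bases before to 50 after each start), which holds 32851 windows of 300 bases. The longest stretch that Gzmc, Gzmf, Gzmg, Gzmd and Gzme share before their starts was the 20 bases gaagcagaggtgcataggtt, found in these 5 windows and no other of the table. The sequences around them are shown because these 5 genes had many reads in day 11 tumor and few or none in WT spleen. Each is written 5′ to 3′ on the minus strand of chromosome 14. Capitals mark TGTGGT, the core bound by RUNX factors, and an octamer that equals TGACGTCA, the cAMP response element, in Gzmc, Gzmf and Gzmg.
Gzmc, chr14:56234658-56234774: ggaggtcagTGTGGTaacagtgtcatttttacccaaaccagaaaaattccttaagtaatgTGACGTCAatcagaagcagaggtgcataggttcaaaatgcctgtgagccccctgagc
Gzmf, chr14:56211430-56211549: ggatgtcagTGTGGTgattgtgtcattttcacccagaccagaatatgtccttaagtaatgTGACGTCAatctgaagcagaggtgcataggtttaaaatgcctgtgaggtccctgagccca
Gzmg, chr14:56159597-56159716: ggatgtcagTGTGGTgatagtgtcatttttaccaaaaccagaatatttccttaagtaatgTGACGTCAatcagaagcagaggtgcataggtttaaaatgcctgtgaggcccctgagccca
Gzmd, chr14:56132595-56132714: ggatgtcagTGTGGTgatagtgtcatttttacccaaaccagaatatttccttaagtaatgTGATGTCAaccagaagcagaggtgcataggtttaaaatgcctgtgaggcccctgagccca
Gzme, chr14:56120628-56120747: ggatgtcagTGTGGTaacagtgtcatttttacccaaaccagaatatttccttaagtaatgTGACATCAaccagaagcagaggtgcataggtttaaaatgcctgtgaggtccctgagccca

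Counted from 1 at the first base of the octamer, Gzmd carried the change C4T and Gzme the change G5A relative to TGACGTCA. Base for base, the Gzmd stretch was 97.5% identical to that of Gzmg, Gzmf 94.2% and Gzmc 93.2%, with Gzme between Gzmd and Gzmf. TGACGTCA, which reads the same on both strands, was in 1.79% of all windows. TGTGGT, or ACCACA on the other strand, was in 16.8% of all windows and in the windows of 9 members, all but Gzmk. ACGTG, the core of HIF sites, or CACGT, was in 19.6% of all windows and, among the members, in those of Gzmk and of 1 of the 2 starts of Gzmm. The motifs do not overlap in the stretches shown. A match describes letters in a window and is not a measured site.

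The members took a larger share of reads in each tumor group than in the spleen group of the same genotype. Outside ribosomal and mitochondrial reads, the 10 members together took 3.08% ± 0.915 of reads in VHL-deficient and 1.18% ± 0.666 in WT cells of day 11 tumor (SD, n = 3 each). In unsplit day 7 tumor they took 3.06% ± 0.325 in VHL-deficient and 0.803% ± 0.0431 in WT cells, and in spleen 0.325% ± 0.0521 in VHL-deficient and 0.114% ± 0.0153 in WT cells (n = 2 each). Over single libraries the share ran from 0.103%, in WT spleen, to 5.25%, in replicate 1 of the VHL-deficient Trm cells. The widest 95% Wilson interval of a library's share was 0.04 percentage points, which covers counting error only.

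**Figure D1:**
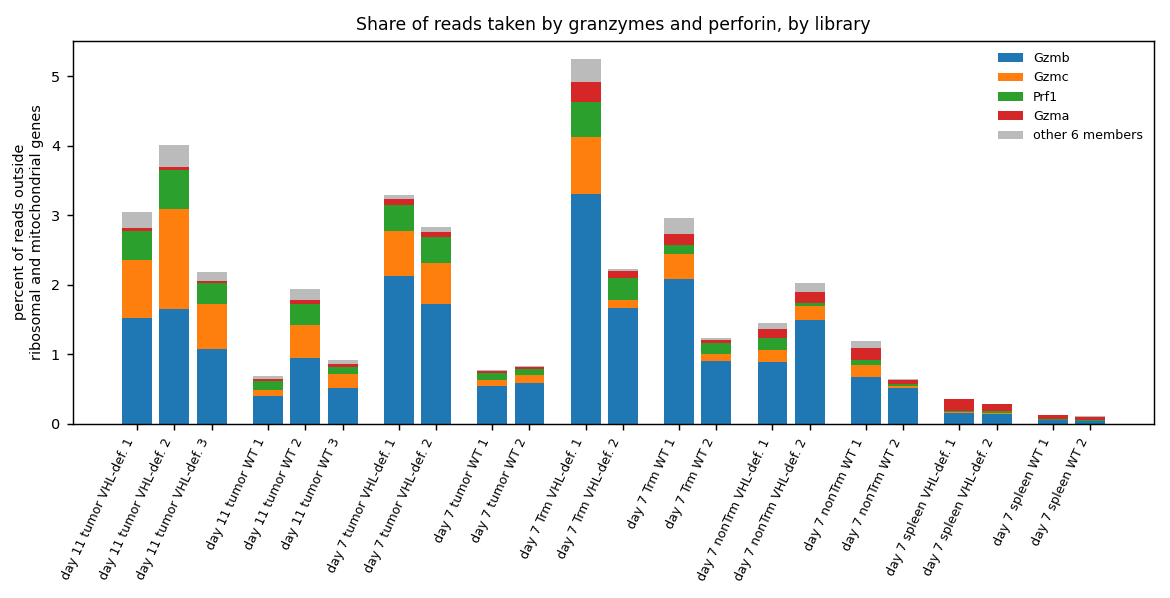
Percent of reads outside ribosomal and mitochondrial genes taken by the 10 members in each of the 22 libraries, stacked by gene, with each VHL-deficient group left of its WT group. Day 11 VHL-deficient libraries reach 2.18% to 4.01% and the WT libraries beside them 0.687% to 1.94%; the 4 spleen libraries at the right take 0.103% to 0.362%.

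Gzmb alone gave 41.2% to 79.9% of the members' reads in tumor libraries and 34.3% to 49.9% in spleen libraries. Among genes outside the ribosomal gene and the mitochondrial genome, it was the most abundant in replicate 1 of the VHL-deficient Trm cells. On the same ranking, in VHL-deficient day 11 tumor it ranked 2 to 4 and in WT day 11 tumor 6 to 15, and in spleen it ranked 59 to 64 in VHL-deficient and 255 to 409 in WT cells. Per kilobase of exon, Gzmc was the highest member in VHL-deficient day 11 tumor, with a mean of 47438 scaled counts per kb beside 42564 for Gzmb. That order of means rests on replicate 2 (71932 for Gzmc and 51068 for Gzmb), and in replicates 1 and 3 Gzmb was the higher. In the other 7 tumor groups Gzmb was highest, and in both spleen groups Gzma was, with 5641 per kb in VHL-deficient and 1829 per kb in WT cells.

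**Figure D2:**
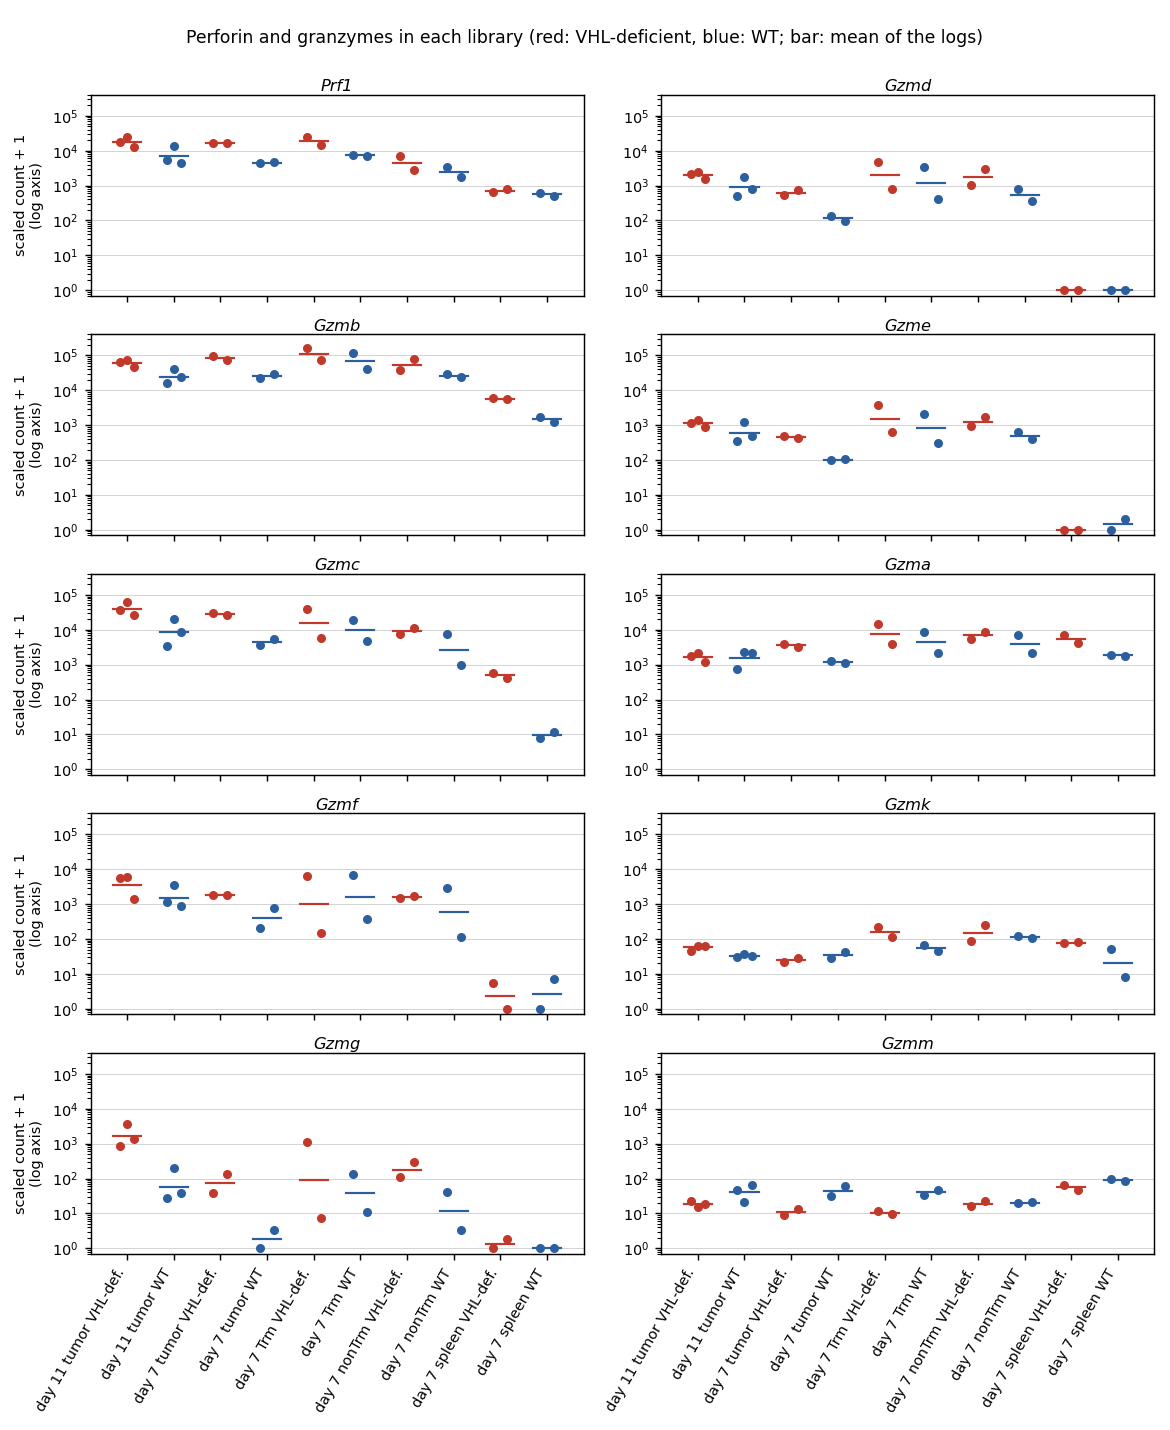
Scaled count + 1 (log axis) of each member in each library, by group, with VHL-deficient groups (red) left of their WT groups (blue); points are libraries and bars the mean of the logs. Gzmc, Gzmd, Gzme, Gzmf and Gzmg span the widest ranges, Gzmd standing at 98.8 or more in all 18 tumor libraries and at 0 reads in all 4 spleen libraries.

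Tumor was set against spleen within day 7, in unsplit cells, where both shared a plate column as read from the ending of the sample titles. Prf1, Gzmb, Gzmc, Gzmd, Gzme and Gzmf were far higher in tumor in both genotypes and Gzmg in VHL-deficient cells, while Gzma and Gzmk were not called in either direction. In VHL-deficient cells 7 members were called higher (Gzmb, Gzmc, Gzmd, Gzme, Gzmf, Gzmg and Prf1) and 1, Gzmm, lower, where a call is an adjusted p under 0.05 over all 14327 genes tested. Of all genes, 9.98% were called higher there, 5.47% lower and 15.4% in either direction. In WT cells 6 members were called higher and none lower, beside 13.2% of all genes called higher, 8.31% lower and 21.5% in either direction. All 10 members passed the filter on low values, but Gzmd, Gzme, Gzmf and Gzmg did so through tumor libraries alone, of any tumor group. The filter thus favored a difference in these genes, though it did not force it in each genotype. They are described without a p, and the counts that hold them are no support. The calls of the other 6 members were Prf1, Gzmb and Gzmc, higher in both genotypes, and Gzmm, lower in VHL-deficient cells. These are bulk samples, in which more cells that express a gene and more RNA per cell cannot be told apart.

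Prf1 had 16502 and 16500.3 scaled counts in VHL-deficient tumor libraries, against 637 and 790.0 in VHL-deficient spleen libraries. The ratio of means was 23.1, with a log2 fold change (log2FC) of 4.54 ± 0.47 (SE) and an adjusted p of 1.26e-06 (limma). WT cells had 4496 and 4708 in tumor, against 626 and 508 in spleen, a log2FC of 3.03 ± 0.47 (adjusted p = 0.000117). Neither pair of groups overlapped.

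Gzmb had 96736 and 75646 scaled counts in VHL-deficient tumor, against 5838 and 5469 in spleen, 15.2 times as much (adjusted p = 3.19e-05). In WT cells it had 23044 and 29394 in tumor, against 1727 and 1236 in spleen, 17.7 times as much (adjusted p = 1.27e-05). The log2FC of VHL-deficient cells minus that of WT cells was -0.23 (95% interval -1.79 to 1.33).

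Gzmc, the neighbour of Gzmb, had 29938 and 26375 scaled counts in VHL-deficient tumor, against 579 and 414 in spleen, a log2FC of 5.84 ± 0.89 (adjusted p = 0.000118). In WT cells it had 3771 and 5364 in tumor, against 6.96 and 10.5 in spleen, a log2FC of 8.88 ± 0.89 (adjusted p = 5.76e-07). The low WT spleen values rest on 5 and 10 reads, and neither pair of groups overlapped.

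The 4 members further along the cluster were almost silent in spleen. Gzmd had 536 and 734 scaled counts in VHL-deficient tumor and 135 and 98.8 in WT tumor, against no read in any of the 4 spleen libraries. Gzme had 486 and 425 in VHL-deficient tumor and 96.0 and 106 in WT tumor, against no read in VHL-deficient spleen and 1 read, in replicate 2, in WT spleen. Against a floor of 3 reads per spleen library, Gzmd was at least 138-fold higher in VHL-deficient tumor than in VHL-deficient spleen and at least 32.0-fold higher in WT tumor than in WT spleen. Gzme was at least 99.4-fold higher in VHL-deficient tumor. In WT cells, with 133 reads of Gzme in tumor and 1 in spleen, the ratio of levels was 193 (95% counting interval 34.0 to 7664).

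Gzmf had 1865 and 1822 scaled counts in VHL-deficient tumor and 205 and 762 in WT tumor, against 2 reads in VHL-deficient and 6 reads in WT spleen. Its ratio to spleen was 825 in VHL-deficient cells (95% counting interval 228 to 6815) and 154 in WT cells. Gzmg had 37.9 and 133 scaled counts in VHL-deficient tumor and 0 and 2.35 in WT tumor, against 1 read in VHL-deficient spleen and none in WT spleen. Its ratio to spleen in VHL-deficient cells was 208 (95% counting interval 37.0 to 8275), and in WT cells it stood at or under 3 reads a library in both tissues. Gzmn, which lies between Gzmf and Gzmg, had at most 21 reads in any library and 0 in WT unsplit day 7 tumor and WT spleen.

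**Figure D3:**
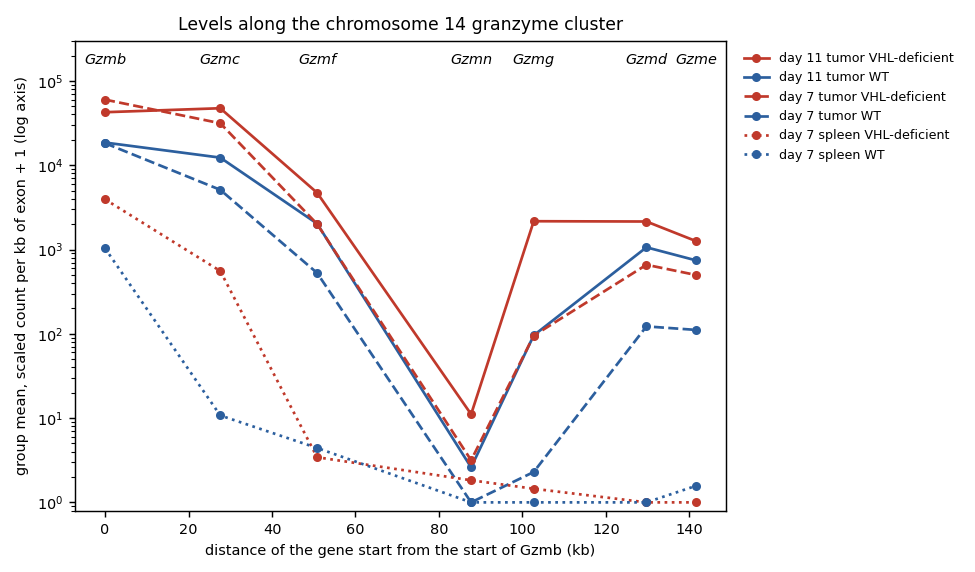
Group mean, in scaled counts per kb of exon + 1 (log axis), of the 7 chromosome 14 granzymes against the distance of their starts from the start of Gzmb in kb, for VHL-deficient (red) and WT (blue) cells of day 11 tumor, day 7 tumor and day 7 spleen. In tumor Gzmb and Gzmc stand highest, Gzmn is near 0 reads, and Gzmg at 103 kb shows the widest gap between VHL-deficient and WT cells at day 11.

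The 3 members off chromosome 14 other than Prf1 did not share this pattern. Gzma was lower in tumor in both genotypes without being called: 3954 and 3199 scaled counts in tumor against 7185 and 4163 in spleen of VHL-deficient cells, and 1282 and 1124 in tumor against 1927 and 1752 in spleen of WT cells (adjusted p = 0.577 and 0.536). Gzmm, a granzyme known from NK cells and innate-like T cells, had 8.12 and 12.6 in tumor against 64.8 and 46.8 in spleen of VHL-deficient cells, a log2FC of -2.33 ± 0.51 (adjusted p = 0.00356). In WT cells Gzmm had 30.5 and 58.8 in tumor against 97.4 and 84.9 in spleen (log2FC -1.08 ± 0.51, adjusted p = 0.141). Gzmk, a trypsin-like granzyme, had 21.6 and 28.4 in tumor against 73.8 and 82.9 in spleen of VHL-deficient cells (adjusted p = 0.0749), and was called lower without replicate 2 of the VHL-deficient nonTrm cells (0.043). In WT cells its groups overlapped, at 28.4 and 42.3 in tumor against 50.1 and 7.33 in spleen, and it was called higher in tumor without WT spleen replicate 1 (0.0161).

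Some of these calls were sensitive. With voom on the recovered reads, the calls of Gzmf and Gzmg in VHL-deficient cells and of Gzmd, Gzme and Gzmf in WT cells were lost. Gzmg also lost its call without any 1 of the 4 VHL-deficient libraries compared. Gzmm lost its call without spleen replicate 1 (adjusted p = 0.0529) or tumor replicate 1 (0.0631). The NK cell list of 5 genes summed to 249 to 326 scaled counts in tumor against 49.2 to 60.3 in spleen of VHL-deficient cells, and to 370 to 522 against 71.2 to 87.7 in WT cells; its defining gene Ncr1 had no read in either unsplit day 7 tumor group. The mast cell and basophil list of 6 genes summed to 464 to 541 in tumor against 12.3 to 13.4 in spleen of VHL-deficient cells, and to 72.9 to 80.7 against 7.33 to 9.74 in WT cells, mostly as Kit. A dendritic cell list of 5 genes was higher in spleen, at 150 to 229 in tumor against 691 to 1008 in spleen of VHL-deficient cells. In WT cells it summed to 91.7 to 296 against 834 to 1236. This was mostly Itgax, which reached 1203 in WT spleen replicate 2. Flt3 had no read in 13 of the 22 libraries, Siglech none in 17 and Clec9a none in 18. Zbtb46 was highest, at 248, in VHL-deficient replicate 2 of day 11 tumor. The part of NK cells, mast cells, basophils or dendritic cells in these results was not tested.

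**Figure D4:**
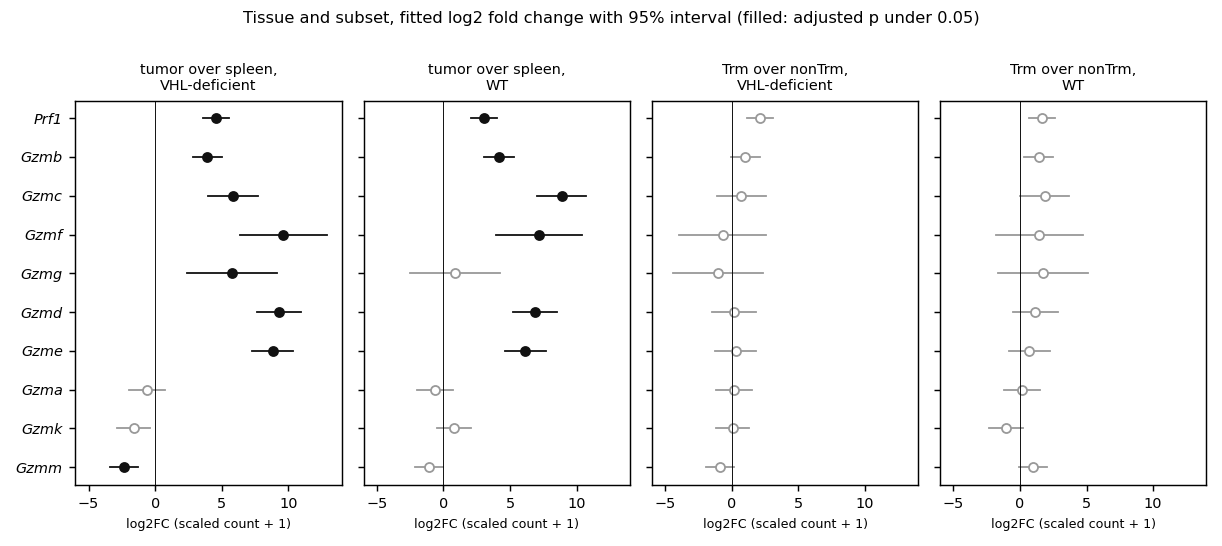
Fitted log2FC of each member with its 95% interval for tumor over spleen and for Trm over nonTrm, in VHL-deficient and WT cells; filled points are calls at an adjusted p under 0.05. Perforin and the chromosome 14 granzymes lie to the right of 0 in both tumor panels, and for Gzmd, Gzme, Gzmf and Gzmg, with 0 to 6 reads per spleen library, the fitted values depend on the pseudocount.

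VHL-deficient cells were compared with WT cells in day 11 tumor, the setting with the most replicates. Gzmg and Prf1 were called higher in VHL-deficient cells, Gzmb and Gzmc were higher in every VHL-deficient library than in any WT library without being called, and no member was called lower. These 2 of 10 members stand beside 4.47% of all genes called higher, 2.39% lower and 6.87% in either direction. The members' median log2FC was 1.22, against 0.07 over all genes, and 5 members had an unadjusted p under 0.05, beside 3165 of the 14327 genes.

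Prf1 had 17809.9, 24604 and 12684 scaled counts in VHL-deficient libraries, against 5474, 13492 and 4583 in WT libraries. Its log2FC was 1.35 ± 0.39 (adjusted p = 0.0388). The groups overlapped through WT replicate 2, which lay above the lowest VHL-deficient library.

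Gzmg had 876, 3691 and 1338 scaled counts in VHL-deficient libraries, against 27.4, 195 and 36.3 in WT libraries. Every VHL-deficient library exceeded every WT library, and the ratio of means was 22.8 (log2FC 4.78 ± 1.32, adjusted p = 0.0326). Gzmd, a close copy of Gzmg, had 2162, 2506 and 1544 scaled counts in VHL-deficient against 496, 1788 and 785 in WT libraries, and overlapped (adjusted p = 0.293).

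Gzmb had 64780.2, 73334 and 45253 scaled counts in VHL-deficient libraries, against 16109, 40696 and 23253 in WT libraries, with a log2FC of 1.27 ± 0.43 (adjusted p = 0.0826). Gzmc had 35943, 64308 and 26979 in VHL-deficient libraries, against 3518, 20760.0 and 8739 in WT libraries, with a log2FC of 2.20 ± 0.72 (adjusted p = 0.0723). Within libraries, the level of Gzmc was 0.555 to 0.877 times that of Gzmb in VHL-deficient cells and 0.218 to 0.510 times in WT cells, so the groups did not overlap in this ratio either.

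Gzme had 1123, 1428 and 900.5 scaled counts in VHL-deficient libraries, against 341, 1209.7 and 488 in WT libraries (adjusted p = 0.380). Gzmf had 5647, 5907 and 1444 in VHL-deficient libraries against 1151, 3532 and 906 in WT libraries (adjusted p = 0.607). For both, WT replicate 2 lay within the range of the VHL-deficient libraries.

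Gzma showed no separation, with 1762, 2159.7 and 1210.0 scaled counts in VHL-deficient libraries against 771, 2257 and 2186 in WT libraries (log2FC 0.09, 95% interval -1.01 to 1.2). Gzmk had 45.3, 63.8 and 63.3 in VHL-deficient libraries against 29.2, 37.3 and 32.0 in WT libraries; the groups did not overlap, but the difference was not called (adjusted p = 0.371). Gzmm had 22.1, 13.8 and 17.5 in VHL-deficient libraries against 45.6, 20.6 and 64.0 in WT libraries, lower on average in VHL-deficient cells (log2FC -1.12 ± 0.42, adjusted p = 0.117).

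WT replicate 2, the library with neutrophil and NK cell transcripts, was the highest WT library for Gzma, Prf1 and all 6 chromosome 14 granzymes. Without it, 5 members were called: Prf1 (adjusted p = 0.00621), Gzmg (0.0284), Gzmb (0.0481), Gzmc (0.0364) and, lower, Gzmm (0.0367). Both calls were lost without VHL-deficient replicate 1 or 2 or WT replicate 1 or 3, and that of Gzmg also without VHL-deficient replicate 3; neither passed without the filter on low values (adjusted p = 0.0764 for Prf1 and 0.0644 for Gzmg). Gzmb was also called without replicate 2 of the VHL-deficient nonTrm cells (0.0353), whose spread enters the shared error, and with voom on the recovered reads (0.0357). The neutrophil list of 6 genes summed to 0.762 to 5.38 scaled counts in VHL-deficient and 1.82 to 771 in WT libraries, and the NK cell list to 275 to 520 in VHL-deficient and 487 to 912 in WT libraries. The mast cell and basophil list summed to 697 to 1123 in VHL-deficient and 63.8 to 178 in WT libraries. Kit gave 638 to 1051 and 54.7 to 155 of these. Over all 22 libraries, the protease gene Cpa3 of this list ran from 2.35 to 134 scaled counts. The protease gene Mcpt8 ran from 0 to 58.4 and was highest in VHL-deficient replicate 2 of day 11 tumor. The mast cell protease gene Mcpt4 had no read in any library, Tpsb2 none in 21 and Fcer1a none in 17. In VHL-deficient and WT cells the same list summed to 785 to 1019 and 84.0 to 131 in Trm cells and to 641 to 650 and 199 to 217 in nonTrm cells. The part of these cells in the result was not tested.

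**Figure D5:**
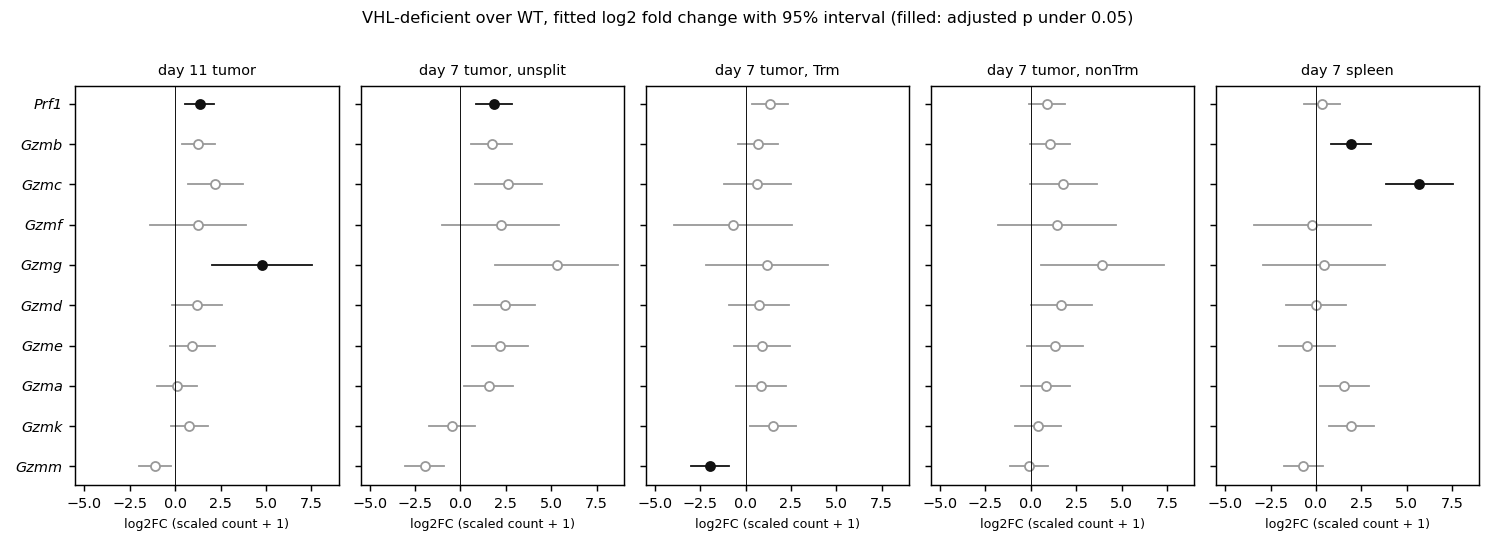
Fitted log2FC of VHL-deficient over WT cells for each member, with its 95% interval, in the 5 settings; filled points are calls at an adjusted p under 0.05. Prf1 lies to the right of 0 in all 5 panels and is called in 2 of them, and Gzmm lies to the left in all 5 and is called in Trm cells.

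In unsplit day 7 tumor only 1 of the 10 members passed the test by genotype. Prf1 was called higher in VHL-deficient cells, beside 1.68% of all genes called higher, 0.223% lower and 1.91% in either direction. Of the 10 members, 9 had groups that did not overlap: 8 were higher in both VHL-deficient libraries than in either WT library, and Gzmm was lower. The share of all genes that parted in this way was not counted, so this count is a description only. The median log2FC was 2.00, against 0.03 over all genes, and 8 members had an unadjusted p under 0.05, beside 1952 of the 14327 genes.

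Prf1 had 16502 and 16500.3 scaled counts in VHL-deficient and 4496 and 4708 in WT libraries, a log2FC of 1.84 ± 0.47 (adjusted p = 0.0467). This lay close to the threshold: without any 1 of the 4 libraries the call was lost (adjusted p = 0.12 to 0.283). Without replicate 2 of the VHL-deficient nonTrm cells, Gzmb (0.0484) and, lower, Gzmm (0.0354) were called beside it. A fit of these 4 libraries alone called 8 members higher: Prf1, Gzma, Gzmb, Gzmc, Gzmd, Gzme, Gzmf and Gzmg.

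The levels of Gzmb (3.29 times), Gzmc (6.16 times), Gzmd (5.42 times) and Gzme (4.51 times) were all higher in VHL-deficient cells by ratio of means, with adjusted p of 0.116, 0.160, 0.147 and 0.171. Gzmg had 28 and 169 reads in VHL-deficient and 0 and 1 in WT libraries, a ratio of levels of 72.7 (95% counting interval 12.9 to 2886; adjusted p = 0.112). Gzma, at 3954 and 3199 in VHL-deficient and 1282 and 1124 in WT libraries, had an adjusted p of 0.289. Gzmf, at 1865 and 1822 in VHL-deficient and 205 and 762 in WT libraries, had one of 0.545. Gzmm, at 8.12 and 12.6 in VHL-deficient and 30.5 and 58.8 in WT libraries, had an adjusted p of 0.0535. Gzmk, at 21.6 and 28.4 in VHL-deficient and 28.4 and 42.3 in WT libraries, had touching groups (adjusted p = 0.774).

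In the Trm cells no member was called higher, and Gzmm was called lower in VHL-deficient cells, beside 5.07% of all genes called higher, 5.03% lower and 10.1% in either direction. Gzmm had 10.5 and 8.54 scaled counts in VHL-deficient libraries, against 33.8 and 46.8 in WT libraries (log2FC -1.96 ± 0.51, adjusted p = 0.0188). These levels rest on 10 and 11 reads in VHL-deficient and 25 and 64 reads in WT libraries. The call was lost without VHL-deficient replicate 2 (adjusted p = 0.174), WT replicate 1 (0.0694) or WT replicate 2 (0.0942), and in a fit of these 4 libraries alone (0.0553). The NK cell list summed to 91.6 to 200 scaled counts in VHL-deficient and 301 to 308 in WT Trm libraries, with Ncr1 at 0 to 0.776 and at 0, and its part in the result was not tested.

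Prf1 had 25153 and 14299 scaled counts in VHL-deficient Trm libraries, against 7575 and 7230.4 in WT Trm libraries, with no overlap (log2FC 1.36 ± 0.47, adjusted p = 0.071). It was called without replicate 2 of the VHL-deficient nonTrm cells, a library outside this contrast whose spread enters the shared error (adjusted p = 0.0273). Gzmk had 216 and 116 in VHL-deficient against 66.2 and 45.3 in WT Trm libraries, again with no overlap (adjusted p = 0.113, and 0.0299 with voom on the recovered reads). The 6 chromosome 14 granzymes overlapped between the genotypes.

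Replicate 1 of the VHL-deficient Trm cells exceeded replicate 2 in all 10 members, and replicate 1 of the WT Trm cells exceeded replicate 2 in 9 of 10. Gzmg had 1108 and 6.21 scaled counts in the VHL-deficient Trm replicates, a 178-fold spread, and Gzmf had 6457 and 149.8. In the WT Trm replicates Gzmf had 7021 and 369.7, a 19.0-fold spread. Gzmb spread 2.20-fold in VHL-deficient and 2.80-fold in WT Trm cells, and Gzma had 14955 and 4030.4 in VHL-deficient and 8806 and 2127 in WT Trm cells.

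In the nonTrm cells none of the 10 members was called, beside 1.65% of all genes called higher, 0.67% lower and 2.32% in either direction. An unadjusted p under 0.05 was found for 2 members, beside 2199 of all genes. With voom on the recovered reads no member was called either. Gzmb had 37037 and 80911 scaled counts in VHL-deficient libraries, against 28699.9 and 23354 in WT libraries, with no overlap (log2FC 1.08 ± 0.53, adjusted p = 0.340). Gzmc, Gzmd, Gzme and Gzmg did not overlap either, each higher in VHL-deficient cells (adjusted p = 0.345, 0.312, 0.411 and 0.233). Gzmc had 7659 and 11232 in VHL-deficient against 7441 and 961 in WT libraries. Gzma (5576 and 8714 in VHL-deficient, 7005 and 2215 in WT libraries), Gzmf, Gzmk and Gzmm overlapped, with adjusted p of 0.606, 0.733, 0.83 and 0.96. Prf1 had 6969.5 and 2769 in VHL-deficient against 3329.8 and 1709.8 in WT libraries and overlapped (adjusted p = 0.392). In VHL-deficient replicate 2, the library with the highest ribosomal share, Gzmb was the higher and Prf1 the lower of its group, and the level of Prf1 was 0.0342 times that of Gzmb, the lowest such ratio of all 22 libraries.

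In spleen Gzmb and Gzmc were called higher in VHL-deficient cells, beside 2.44% of all genes called higher, 0.733% lower and 3.18% in either direction. Gzmc had 579 and 414 scaled counts in VHL-deficient libraries, against 6.96 and 10.5 in WT libraries, 56.9 times as much (log2FC 5.68 ± 0.89, adjusted p = 0.000407). It stood at 259 and 504 reads in VHL-deficient against 5 and 10 reads in WT libraries. Its call held without any 1 of the 4 libraries (adjusted p = 0.00468 to 0.0113) and was lost with voom on the recovered reads (0.159). The B cell list summed to 570 to 619 scaled counts in VHL-deficient and 1174 to 1222 in WT spleen libraries and the T cell genes to 31358 to 39443 and 18127 to 21402; their part in the result was not tested.

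Gzmb had 5838 and 5469 scaled counts in VHL-deficient spleen, against 1727 and 1236 in WT spleen, 3.82 times as much (log2FC 1.95 ± 0.53, adjusted p = 0.0467). The groups lay well apart, yet the call was lost without any 1 of the 4 libraries (adjusted p = 0.131 to 0.312). Gzma had 7185 and 4163 in VHL-deficient against 1927 and 1752 in WT libraries, 3.08 times as much by ratio of means, without a call (adjusted p = 0.269), though a fit of these 4 libraries alone called it (0.00156).

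Prf1 differed little in spleen, at 637 and 790.0 scaled counts in VHL-deficient and 626 and 508 in WT libraries (log2FC 0.33, 95% interval -0.65 to 1.31, adjusted p = 0.851). Gzmk had 73.8 and 82.9 in VHL-deficient against 50.1 and 7.33 in WT libraries (adjusted p = 0.094), and was called without WT replicate 1 (0.00183) or without replicate 2 of the VHL-deficient nonTrm cells (0.0487). Gzmm had 64.8 and 46.8 in VHL-deficient against 97.4 and 84.9 in WT libraries (adjusted p = 0.638). For Gzmd, Gzme, Gzmf and Gzmg, at 0 to 6 reads a library, a difference was not detectable at this depth.

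Trm cells were set against nonTrm cells within day 7 tumor in each genotype. No member was called in either genotype, beside 0.00698% of all genes in VHL-deficient cells and 0.3% in WT cells (0.202% higher and 0.0977% lower), and voom on the recovered reads called none either. Prf1 came nearest: it had 25153 and 14299 scaled counts in Trm against 6969.5 and 2769 in nonTrm libraries of VHL-deficient cells (log2FC 2.11 ± 0.47, adjusted p = 0.327). In WT cells Prf1 had 7575 and 7230.4 in Trm against 3329.8 and 1709.8 in nonTrm libraries (log2FC 1.63 ± 0.47, adjusted p = 0.140). Neither pair overlapped, and leaving out a VHL-deficient nonTrm library brought Prf1 past the threshold, replicate 1 for VHL-deficient cells (adjusted p = 0.00127) and replicate 2 for WT cells (0.0481). The first of these sets the Trm cells against replicate 2 alone, the library with the high ribosomal share, whose spread is assumed to be that of the other groups. At an unadjusted p under 0.05, 1 member stood out in VHL-deficient and 3 in WT cells, beside 1257 and 1629 of all genes.

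Gzmb had 165728 and 75231 scaled counts in Trm against 37037 and 80911 in nonTrm libraries of VHL-deficient cells, and overlapped through nonTrm replicate 2. In WT cells it had 115119 and 41115 in Trm against 28699.9 and 23354 in nonTrm libraries, with no overlap (log2FC 1.41 ± 0.53, adjusted p = 0.281). Gzmm, at 33.8 and 46.8 in Trm against 18.8 and 20.3 in nonTrm libraries of WT cells, was higher in Trm there, and at 10.5 and 8.54 in Trm against 15.04 and 21.8 in nonTrm libraries it was lower in Trm in VHL-deficient cells. Gzmk was lower in Trm in WT cells, at 66.2 and 45.3 against 119 and 108 in nonTrm (adjusted p = 0.559), and overlapped in VHL-deficient cells. Gzma and the chromosome 14 granzymes Gzmc, Gzmd, Gzme, Gzmf and Gzmg overlapped in both genotypes, with adjusted p of 0.437 or more.

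Day 11 and day 7 tumor were set against each other in unsplit cells, but the day cannot be told apart from the plate column read from the titles. No gene, and so no member, was called in either genotype, beside 0% of all genes, by limma or with voom. At an unadjusted p under 0.05, 3 members stood out in each genotype, beside 633 of all genes in VHL-deficient and 484 in WT cells, and a fit of the compared groups alone called Gzma, Gzmd, Gzme and Gzmg in VHL-deficient and Gzmd in WT cells. Gzmd had 2162, 2506 and 1544 scaled counts at day 11 against 536 and 734 at day 7 in VHL-deficient cells, and 496, 1788 and 785 at day 11 against 135 and 98.8 at day 7 in WT cells (adjusted p = 1.00 and 0.672). Gzmg had 876, 3691 and 1338 at day 11 against 37.9 and 133 at day 7 in VHL-deficient cells (adjusted p = 0.903). In WT cells Gzmg had 27.4, 195 and 36.3 at day 11 against 0 and 2.35 at day 7. Neither gene overlapped between days. Gzmb had 64780.2, 73334 and 45253 at day 11 against 96736 and 75646 at day 7 in VHL-deficient cells, a log2FC of -0.51 (95% interval -1.52 to 0.49). Gzma, Gzmb, Gzme, Gzmk and Gzmm also parted by day in VHL-deficient cells, Gzma and Gzmb being lower at day 11. Gzme and Gzmf parted in WT cells, while Gzmc and Prf1 overlapped in both genotypes.

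Whether the genotype difference itself varied was tested with interaction terms. No member was called for subset, tissue or day, beside 0%, 0.0698% (0.0209% higher and 0.0489% lower) and 0% of all genes, and voom on the recovered reads called none; a fit of the compared groups alone called 1, Gzmc, for tissue (adjusted p = 0.0122). The 30 member tests held 7 unadjusted p under 0.05: 1 for subset, 6 for tissue and 0 for day. Beside these stood 1156, 1377 and 268 of all genes. Gzmd, Gzme, Gzmf and Gzmg had 0 to 6 reads per spleen library. Their tissue terms therefore set a tumor difference against a floor, and the count for tissue is no support. The smallest adjusted p of a member was 0.384, that of Gzmk for tissue. Gzmc, called in spleen and not in unsplit tumor, had a genotype log2FC lower by 3.04 ± 1.25 in tumor than in spleen (interaction log2FC -3.04, adjusted p = 0.455). The genotype difference of Prf1 was 1.51 ± 0.67 larger in tumor than in spleen (adjusted p = 0.484).

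Across the 10 groups the members fell into sets by their mean log2 levels, given as a description, since groups share genotype, tissue and depth. Pearson's r over the 10 group means was 0.77 to 1.00 among the 6 chromosome 14 granzymes and 0.81 to 0.92 between them and Prf1. The closest pair was Gzmd and Gzme, whose levels stood in a ratio of 0.924 to 1.93 in the 18 tumor libraries, and these are also the 2 genes that share the most sequence. Gzma and Gzmk had r = 0.75 with each other, and Gzma had r of 0.01 to 0.32 with the granzymes on chromosome 14. Gzmm ran opposite to every other member, with r of -0.84 to -0.45.

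Gzmb, Gzmd, Gzme, Gzma and Prf1 were highest in VHL-deficient Trm cells. Gzmc, Gzmf and Gzmg were highest in VHL-deficient day 11 tumor, Gzmk in VHL-deficient nonTrm cells and Gzmm in WT spleen. The place of Gzmk rests on nonTrm replicate 2 (254, against 89.6 in replicate 1). Ordered by mean, neighbouring groups mostly overlapped: 4 of 9 neighbouring pairs did for Prf1, 6 for Gzmc, Gzmk and Gzmm, 7 for Gzmb, Gzmd, Gzme and Gzmf, and 8 for Gzma and Gzmg. For Prf1 the 5 steps without overlap included those from unsplit day 7 tumor of VHL-deficient cells (16501 ± 1.48) down to day 11 tumor of WT cells (7849.6 ± 4906), and from the lowest tumor group, WT nonTrm cells (2519.8 ± 1146), down to VHL-deficient spleen (714 ± 108) and WT spleen (567 ± 83.5).

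Among 7156 well-expressed genes, those with the group means most like Gzmb were Capg (r = 0.978), Fam20a (0.974) and Agpat4 (0.969). For Gzmc they were Bhlhe40 (0.989), Alcam (0.986) and Capg (0.985), and for Gzmf the chemokine gene Ccl3 (0.987), Filip1 (0.986) and Stk39 (0.985). For Prf1 they were Ssr1 (0.974), Prkar1a (0.974) and Slfn9 (0.972). Gzma was most like Gna15 (0.937), Glmp (0.919) and Susd3 (0.914), and Gzmk most like Hcfc1r1 (0.934), Amz2 (0.929) and Cd200r4 (0.914). Each r is over the same 10 group means and was picked as the highest of many.

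Genes that store, move, inhibit or regulate the granule proteins were counted by list. In day 11 tumor, VHL-deficient cells had 1 of 7 storage and processing genes called higher, 1 of 19 transport and release genes, none of 8 inhibitors and none of 7 other killing molecules, beside 4.47% of all genes, so a single gene in 19 is near the share over all genes. Furin, a proprotein convertase, had 427 ± 122 scaled counts in VHL-deficient and 198 ± 29.9 in WT cells (log2FC 1.07, adjusted p = 0.00865). Sytl2, which tethers secretory vesicles to the plasma membrane, had 872 ± 153 in VHL-deficient and 323 ± 116 in WT cells (log2FC 1.48, adjusted p = 0.00724). The lists' median log2FC were 0.22 and -0.01, against 0.07 over all genes.

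Of 20 regulators of granzyme or perforin transcription, 2 rose and 1 fell in VHL-deficient cells of day 11 tumor. This stands beside 4.47% of all genes called higher and 2.39% lower. Prdm1, which encodes the repressor Blimp-1, rose (315 ± 58.3 in VHL-deficient and 103 ± 47.8 in WT cells, adjusted p = 0.00296), as did Runx3 (674 ± 108 in VHL-deficient and 385 ± 69.2 in WT cells, adjusted p = 0.0415), a RUNX factor of CD8+ T cells. Eomes, a T-box factor that drives perforin and granzyme B transcription, fell (2.94 ± 2.18 in VHL-deficient and 44.9 ± 10.9 in WT cells, adjusted p = 0.00878; n = 3 each). In Trm cells Sytl2 and Prdm1 rose and Eomes fell in VHL-deficient cells (limma, adjusted p = 0.0093, 0.0219 and 0.0458). They were 1 of 19 transport genes higher and, of 20 regulators, 1 higher and 1 lower. These counts are near the shares over all genes, 5.07% higher and 5.03% lower. In spleen Ctsc, the cathepsin that activates granzymes by removing a dipeptide, Serpinb6a and Runx3 rose (limma, adjusted p = 0.0214, 0.00528 and 0.0478). They were 1 of 7 storage genes, 1 of 8 inhibitors and 1 of 20 regulators, beside 2.44% of all genes called higher. No gene of the 5 lists was called by genotype in unsplit day 7 tumor or in nonTrm cells.

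Between tissues the inhibitors moved most: 7 of 8 were called higher in tumor in both genotypes, beside 9.98% of all genes in VHL-deficient and 13.2% in WT cells, with a median log2FC of 2.38 in VHL-deficient and 2.63 in WT cells. Serpinb9, the inhibitor of granzyme B, had 5290 ± 1800 scaled counts in tumor and 579 ± 34.6 in spleen of VHL-deficient cells (adjusted p = 1.86e-06), and 5380 ± 744 in tumor and 577 ± 79.5 in spleen of WT cells (adjusted p = 1.11e-06; n = 2 each). Serpinb6b, Serpina3g and Serpinb9b rose in VHL-deficient cells (adjusted p = 2.32e-05, 4.69e-06 and 0.000572), and Serpinb6b, Serpina3g and Serpinb1a in WT cells (adjusted p = 1.32e-06, 1.01e-05 and 3.67e-05).

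Among the other killing molecules, 4 of 7 were higher in VHL-deficient tumor and 5 of 7 in WT tumor. Beside them, 9.98% and 13.2% of all genes were called higher. Ifng, the gene of interferon gamma, had 1610 ± 53.6 in tumor and 70.7 ± 11.4 in spleen of VHL-deficient cells, and 1590 ± 701 in tumor and 83.3 ± 9.59 in spleen of WT cells (adjusted p = 2.00e-06 and 4.61e-06). Tnfsf10, Tnf and Fasl also rose in VHL-deficient tumor (adjusted p = 0.000119, 0.000126 and 0.00451), and Fasl, Lta and Tnfsf10 in WT tumor (0.00211, 0.0115 and 0.0351).

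Storage genes followed with 3 of 7 higher in VHL-deficient tumor (Furin, Calr and Cst7) and 4 of 7 in WT tumor (those and Srgn, the serglycin gene). Of 19 transport and release genes, 4 were higher and 1 lower in VHL-deficient tumor and 2 higher in WT tumor, beside 9.98% of all genes higher and 5.47% lower in VHL-deficient and 13.2% higher in WT tumor; the syntaxin gene Stx11 was among the higher ones in both (797 ± 62.9 in tumor and 180 ± 32.7 in spleen of VHL-deficient cells, 465 ± 15.3 in tumor and 154 ± 38.3 in spleen of WT cells, adjusted p = 3.34e-05 and 0.000519). Of 20 regulators, 8 were higher and 4 lower in VHL-deficient tumor, and 8 higher and 1 lower in WT tumor, where 8.31% of all genes were lower. Tcf7 was lower in both genotypes (limma, adjusted p = 0.00239 in VHL-deficient and 0.000714 in WT cells). Id2, Batf and Runx3 were lower in VHL-deficient tumor (limma, adjusted p = 0.0166, 0.029 and 0.0319). The transcription factor gene Irf4 had 949 ± 104 in tumor and 35.8 ± 3.08 in spleen of VHL-deficient cells, and 908 ± 293 in tumor and 31.5 ± 4.6 in spleen of WT cells (adjusted p = 2.16e-09 and 1.54e-09). Il2ra and Hif1a rose in tumor in both genotypes as well.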

How the data were processed

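RNA was sequenced from sorted CD8+ T cells in 22 libraries. Per the labels, bead-purified RNA from TCL lysates went into PrepX libraries; STAR, featureCounts, DESeq and the build mm10 are named, without versions or roles, in the submitters' processing notes. The deposited table holds a signal per gene and library. After an offset of 1 was removed, values came in equal steps within each library, which were taken as reads (100% whole, tolerance 0.01 reads, largest deviation 0.000282); the header states 55 samples. Genes with at least 10 scaled counts in at least 2 libraries (14327) were tested with limma 3.58.1 (R 4.3.3) on log2(scaled count + 1), with all 10 groups sharing 1 fit of 12 residual degrees of freedom, trended moderation and Benjamini-Hochberg adjustment. The 14 comparisons are two-sided. Fold changes on this scale understate the change of low genes. The fit was checked on simulated data. Plate column was inferred from the ending of the sample titles, which looks like a plate well. On this reading it held day and sorting apart: Trm and nonTrm libraries lay in column 1, the other day 7 libraries in column 2 and day 11 libraries in column 3. Nothing states separate cultures or donors beyond the pools of 5 mice, so a p-value reflects only the spread between these libraries, which may be technical.

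The members, lists and tests were chosen with earlier results of these data known. All members entered every comparison and are named there singly or in a count, with up to 4 called genes per list and the 3 genes most alike in group means. Alternatives were a TMM scaling, other filters and pseudocounts, voom, a fit of only the compared groups, a replicate block and leaving out each library. Intervals and the floor of 3 reads cover counting error only. Python 3.11.15 with numpy 2.4.6, pandas 2.3.3, scipy 1.17.1 and matplotlib 3.10.9 made tables and plots.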

Additional observations from a re-analysis of the deposited data

Results flagged for a closer look

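Gzmm moved in opposite directions between Trm and nonTrm cells in the 2 genotypes. It had 10.5 and 8.54 scaled counts in Trm against 15.04 and 21.8 in nonTrm libraries of VHL-deficient cells, and 33.8 and 46.8 in Trm against 18.8 and 20.3 in nonTrm libraries of WT cells. The difference between the genotypes, tested as an interaction, was -1.86 on the log2 scale with an adjusted p of 0.573 by limma (unadjusted p = 0.0183). The VHL-deficient levels rest on 8 to 22 reads a library. No group has more than 3 libraries, so single libraries were not tested as outliers.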

How the results depend on the processing

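The counts of members called moved as follows. In day 11 tumor by genotype (2 called) they were 0 without a filter, 5 in a fit of only the compared groups and 0 to 5 without 1 library. In unsplit day 7 tumor (1) they were 0 under TMM scaling, without a filter and at a pseudocount of 0.5, 2 with a filter at 50, 8 in the compared groups alone and 0 to 3 without 1 library. In Trm cells (1) they were 2 with voom, 0 in the compared groups alone and 0 to 2 without 1 library, in nonTrm cells 0 to 0, and in spleen (2) 1 with voom, 3 in the compared groups alone and 1 to 3 without 1 library. Tumor against spleen gave 3 in WT cells with voom (6); 6 with voom, 7 at a pseudocount of 5 and 9 in the compared groups alone in VHL-deficient cells; and 6 to 9 in VHL-deficient (8) and 6 to 7 in WT cells without 1 library. Trm against nonTrm gave 0 to 1 in both genotypes without 1 library. The compared groups alone gave 4 and 1 for day in VHL-deficient and WT cells and 1 for the interaction with tissue. The cause was not tested. Fits of fewer libraries have fewer residual degrees of freedom, and a fit of the compared groups alone also leaves out the spread of the other groups.

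Same-numbered libraries deviated together unevenly (r of -0.18 to 0.27 across all genes), so the numbers were not taken as pairs. Over the members alone r reached 0.41, 0.92 and 0.53 in day 11 tumor by genotype, 0.85 in Trm cells by genotype and 0.77 for Trm against nonTrm in WT cells. It was negative in spleen by genotype (-0.68), for Trm against nonTrm in VHL-deficient cells (-0.22) and for number 1 of WT day 11 against day 7 (-0.16). In day 11 tumor 6 of 6 libraries correlated best with their own number, a hint from the data. A replicate block gave 1 call in day 11 tumor (Prf1; Gzmg at adjusted p = 0.0505) and 1 in spleen (Gzmc; Gzmb at 0.0746), and changed no other call of a member. A crossed replicate block for Trm against nonTrm, chosen after seeing the data, called 0 members in each genotype.

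Of 1985 member values under alternatives, 41 lost and 35 gained a call, none that was called changed sign, and 79 that were uncalled in both settings did, 75 of them without 1 library. Counts over all genes moved too: day 11 tumor by genotype ran from 418 to 3023 (984), unsplit day 7 tumor 94 to 425 (273), Trm cells 234 to 2359 (1446), nonTrm cells 11 to 1996 (332), spleen 230 to 642 (455), Trm against nonTrm 0 to 2544 (1) in VHL-deficient and 0 to 221 (43) in WT cells, and tumor against spleen 876 to 3376 (2213) in VHL-deficient and 1486 to 3967 (3079) in WT cells. TMM scaling moved the median of all genes by at most 0.073 in size (Trm genotype, -0.073). The planned quasi-likelihood count test was not run; voom on the recovered reads stands in for it. Depth limits Gzmm, Gzmk, the WT spleen level of Gzmc and the spleen levels of Gzmd to Gzmg, which rest on few reads.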
